A study of Homo sapiens with 12 samples.

Results

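Genes of glycolysis and of the transcriptional response to low oxygen were examined by RNA-seq in MDA-MB-231-ERβ cells. Members were taken from a list of 39 gene symbols by exact match to the symbol column of the count table. Of these, 38 were found among the 12451 gene entries used, and SLC16A1 was not analysed here. MDA-MB-231 is a human triple negative breast cancer cell line, and MDA-MB-231-ERβ is a derivative in which doxycycline (dox) switches on full-length estrogen receptor beta (ERβ, gene symbol ESR2). All 12 libraries came from this line, so every value describes cells with an induced ERβ transgene. The 4 groups held 3 libraries each and were kept for 5 days in medium with charcoal-stripped serum and dox. Vehicle cells received ethanol, E2 cells received 1 nM of the estrogen 17β-estradiol, TNFα cells received ethanol for 5 days with 20 ng/ml TNFα for the last 3 h, and E2+ TNFα cells received both agents. Dox is missing from the labels of the group with both agents and was taken there from the treatment protocol. No library was labelled as kept at low oxygen. The sources used here describe dishes plated in triplicate, so p-values measure the spread between these dishes.

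Glycolysis splits glucose into pyruvate in the cytosol, and cancer cells often run it at a high rate and release lactate even when oxygen is present. Hypoxia-inducible factors (HIF) pair an oxygen-regulated alpha subunit, HIF-1α from HIF1A or HIF-2α from EPAS1, with a stable partner, and bind the core letters ACGTG or GCGTG near many genes of glucose uptake, glycolysis, blood vessel growth and mitophagy. With oxygen, prolyl hydroxylases such as EGLN1 mark the alpha subunits for breakdown, so HIF activity is set largely at the protein level, which these counts do not measure.

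Values are given in CPM, counts scaled to a library total of 1000000 reads, after normalization by trimmed mean of M values (TMM). Levels of different genes are compared in RPKM, that is CPM divided by the gene's exon length in kilobases. Differences are log2 fold changes from the edgeR quasi-likelihood F test with all 4 groups in a single fit, with Benjamini-Hochberg adjustment over the 11303 genes that reached an RPKM of 1, scaled by library totals alone, in at least 3 libraries. A gene passed the test when its adjusted p did not exceed 0.1. It was called induced or repressed when it also had p under 0.05 and a log2 fold change of 1.5 or more in either direction. These are the thresholds of the study, which applied them after a batch correction that the fit here does not include. Of the 38 members, 35 were tested. EGLN3, CA9 and ANKRD37 did not reach an RPKM of 1 in 3 libraries.

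Library totals ranged from 7652016 to 39943664 reads assigned to genes. The vehicle libraries stood apart. On the first principal component, which held 67.7% of the variance, they lay between -122 and -104 while the other 9 lay between 13.7 and 76.7. Over all tested genes, changes against vehicle moved with the GC content of the exons, with a Spearman correlation across genes of 0.66 for E2, 0.71 for TNFα and 0.67 for E2+ TNFα. It was -0.21 for E2+ TNFα against TNFα and -0.33 for E2+ TNFα against E2. Changes against vehicle are therefore set beside those of a fit in which each library's GC and length trends were removed, and the comparisons that do not use vehicle are described first. The line's mesenchymal markers were present in all libraries, at 324 to 518 RPKM for VIM and 234 to 385 RPKM for AXL. Of 9 luminal and hormone receptor markers, ERBB2, GATA3 and EPCAM were between 1.10 and 22.4 RPKM, and ESR1, PGR and FOXA1 were not analysed here, nor were the markers of immune, endothelial and liver cells. The other 3 were higher in the 6 libraries with E2 than in the 6 without, KRT8 at 1175 to 1795 against 278 to 489 RPKM, KRT18 at 846 to 1637 against 270.5 to 702 RPKM, and CDH1 at 5.95 to 9.86 against 0.326 to 0.668 RPKM. ESR2 was at 57.0 to 60.7 RPKM in vehicle and 50.5 to 63.4 RPKM with both agents, and lower with E2 alone (36.6 to 40.2 RPKM) and TNFα alone (28.5 to 35.2 RPKM). The part of these shifts in the members' changes was not tested. In bulk RNA, fewer cells of a kind and less RNA per cell cannot be told apart.

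Per length, GAPDH led the members with a mean of 2053 RPKM over the 12 libraries, followed by PKM (1276 RPKM), ENO1 (1164 RPKM), PGK1 (551 RPKM) and ALDOA (521 RPKM). The first 8 places were held by enzymes that carry the bulk flux from aldolase to lactate. SLC2A1, the basal glucose transporter GLUT1, was at 151 RPKM. The HIF alpha subunits had close means over the 12 libraries, 18.1 RPKM for HIF1A and 16.5 RPKM for EPAS1. Single libraries ranged from 7.17 to 51.2 RPKM for HIF1A and from 7.30 to 28.3 RPKM for EPAS1. At the low end, PDK1 had 1.26 RPKM. CA9, a hypoxia-induced carbonic anhydrase, had 0.105 to 1.31 RPKM, from 4 to 42 reads per library. EGLN3 had 2 to 48 reads and ANKRD37 had 0 to 33 reads. ANKRD37 was at 0 in E2 replicate 2 and in E2+ TNFα replicate 1, where a count of 0 allows up to 0.478 and 0.185 CPM (3 reads, counting error only). For these 3 members no test was made.

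**Figure D1:**
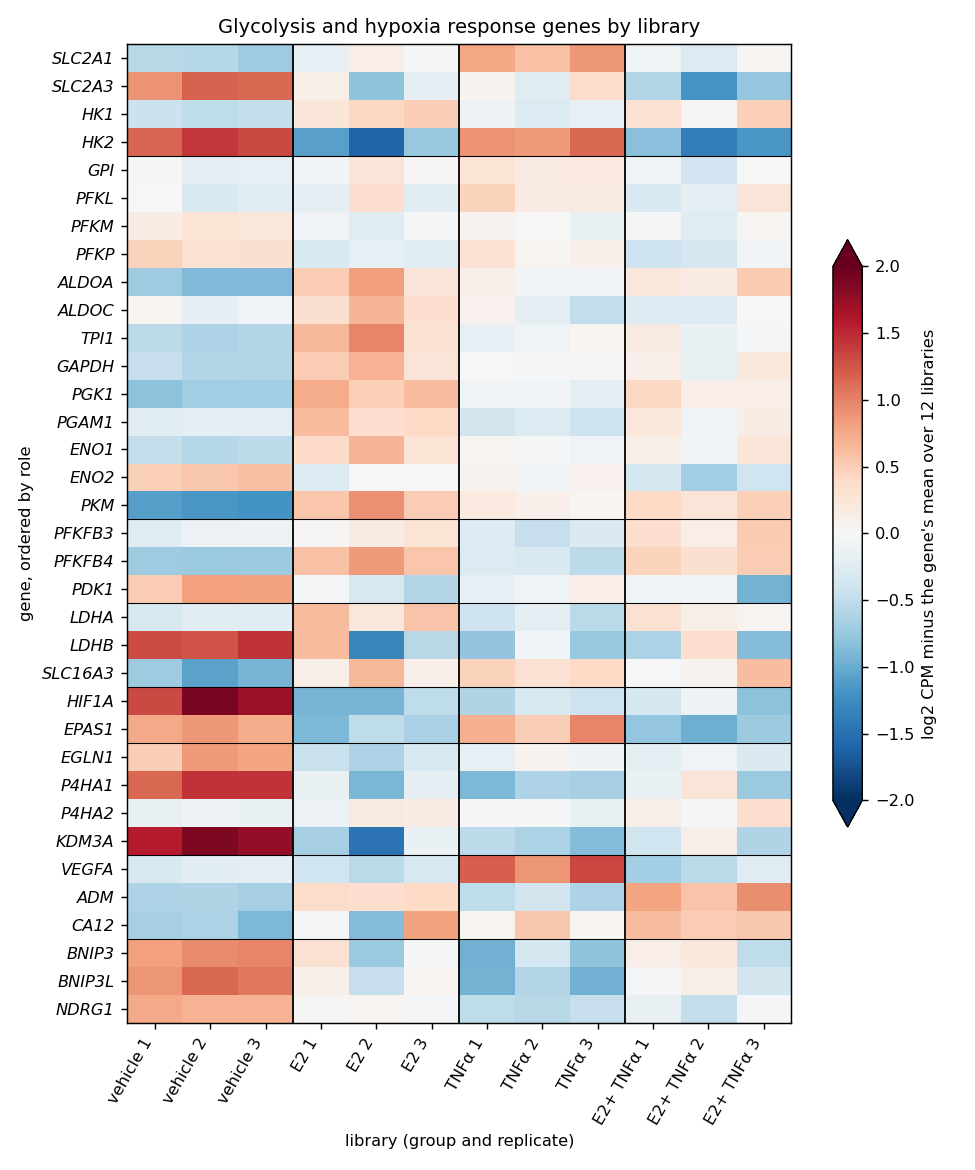
Heat map of log2 CPM minus the gene's own mean over 12 libraries (colour, red higher, blue lower) for the 35 tested members, in rows ordered by role, against the 12 libraries in columns grouped as vehicle, E2, TNFα and E2+ TNFα. The 3 vehicle columns differ from the other 9, HK2 and EPAS1 are low in both E2 groups, and VEGFA and SLC2A1 are highest in the 3 TNFα columns.

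Promoter sequence was read for the 34 members present in the RefSeq promoter table (GRCh38.p14, 250 bases before to 50 after the gene start), and SLC2A3, SLC16A1, VEGFA, BNIP3L and NDRG1 had no entry. The HIF core letters ACGTG or GCGTG, searched on both strands, were found in 25 of 34 members (73.5%), against 48.4% of all 27305 promoters in the table and 64.2% of the promoters of tested genes. Matches on both strands were counted apart, so the palindrome CACGTG, as in LDHA, counts on each strand. LDHA and BNIP3 had the most matches, with 6 each, and PGK1 had 4. These are letters in a short window and were not tested as sites. Promoters are shown for 5 members on which the results below turn, HK2 (chr2:74833877-74834176, plus strand), EPAS1 (chr2:46297157-46297456, plus strand), SLC2A1 (chr1:42958819-42959118, minus strand), ADM (chr11:10304823-10305122, plus strand) and PGK1 (chrX:78103998-78104297, plus strand). Each is written 5′ to 3′ along the gene, with the HIF core letters of either strand in capitals.
HK2: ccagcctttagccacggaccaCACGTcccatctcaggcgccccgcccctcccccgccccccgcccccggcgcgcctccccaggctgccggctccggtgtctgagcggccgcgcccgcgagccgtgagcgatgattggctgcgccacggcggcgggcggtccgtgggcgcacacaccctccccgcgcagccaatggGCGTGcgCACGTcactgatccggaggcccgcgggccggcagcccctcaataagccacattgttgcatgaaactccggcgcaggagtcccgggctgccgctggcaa
EPAS1: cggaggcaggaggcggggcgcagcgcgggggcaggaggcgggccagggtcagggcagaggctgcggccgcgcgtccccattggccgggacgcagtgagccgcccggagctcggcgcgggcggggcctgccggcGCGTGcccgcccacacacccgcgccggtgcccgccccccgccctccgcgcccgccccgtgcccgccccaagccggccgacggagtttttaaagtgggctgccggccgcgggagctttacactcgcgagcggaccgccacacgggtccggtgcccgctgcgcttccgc
SLC2A1: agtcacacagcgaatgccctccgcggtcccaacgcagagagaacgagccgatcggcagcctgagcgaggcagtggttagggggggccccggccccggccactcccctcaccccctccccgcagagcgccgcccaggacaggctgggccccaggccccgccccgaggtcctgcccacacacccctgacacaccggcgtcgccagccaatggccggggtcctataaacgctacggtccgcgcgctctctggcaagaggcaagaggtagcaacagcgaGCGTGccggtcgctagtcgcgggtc
ADM: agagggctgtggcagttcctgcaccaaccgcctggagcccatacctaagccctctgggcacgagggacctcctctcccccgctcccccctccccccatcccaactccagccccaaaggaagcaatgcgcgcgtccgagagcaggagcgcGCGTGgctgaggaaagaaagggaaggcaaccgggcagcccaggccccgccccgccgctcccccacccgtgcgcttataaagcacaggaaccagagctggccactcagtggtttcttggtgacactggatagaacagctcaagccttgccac
PGK1: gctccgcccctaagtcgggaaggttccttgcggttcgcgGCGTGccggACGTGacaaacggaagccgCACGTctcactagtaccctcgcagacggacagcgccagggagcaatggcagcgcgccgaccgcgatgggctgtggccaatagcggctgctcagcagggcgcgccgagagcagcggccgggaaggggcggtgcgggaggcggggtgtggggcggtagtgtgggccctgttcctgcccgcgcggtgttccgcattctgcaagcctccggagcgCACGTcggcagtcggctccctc
In HK2 a match on the minus strand lies 229 bases before the gene start and a close pair 55 and 48 bases before it. PGK1 has a cluster 211, 202 and 183 bases before the start. EPAS1 has a single match 117 bases before the start and ADM a single match 101 bases before it, while that of SLC2A1 lies 25 bases after it. These starts are those of the promoter table and can differ from the bounds of the counted loci. The windows of HK2 and SLC2A1 lie wholly inside their counted loci (chr2:74832655-74893354 and chr1:42925375-42959176).

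E2+ TNFα against TNFα asks what E2 did in cells that all received TNFα, and uses no vehicle library. Of the 35 members, 0 were induced and 3 were repressed, HK2, EPAS1 and VEGFA, beside 5.56% of all tested genes called, 3.55% higher and 2.01% lower. With any size of change, 11 members rose and 8 fell at the same adjusted p, beside 45.3% of all genes, 24.4% that rose and 21% that fell. The median log2 fold change was 0.12 over the members and 0.04 over all tested genes. With GC and length trends removed, the count called was again 3, beside 5.25% of all genes, at log2 fold changes of -2.10 for HK2, -1.56 for EPAS1 and -1.66 for VEGFA.

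E2+ TNFα against E2 asks what 3 h of TNFα did in cells that all received E2. By the edgeR test 0 of 35 members were called, beside 0.407% of all tested genes (0.389% higher and 0.0177% lower), and DESeq2 also called 0. At an unadjusted p under 0.05 there were 11 members, 1 higher and 10 lower, beside 19.4% of all tested genes, 8.91% higher and 10.5% lower. ADM rose and ALDOC, TPI1, GAPDH and PGK1 fell when any size of change was allowed, beside 6% of all genes, 2.65% that rose and 3.34% that fell. In a fit of the E2 and E2+ TNFα libraries alone none of these 5 passed the test, with adjusted p of 0.223 for TPI1, 0.328 for ADM, 0.400 for ALDOC, 0.470 for GAPDH and 0.492 for PGK1. These 2 comparisons share the E2+ TNFα libraries, so their values are given side by side and not as independent results.

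**Figure D2:**
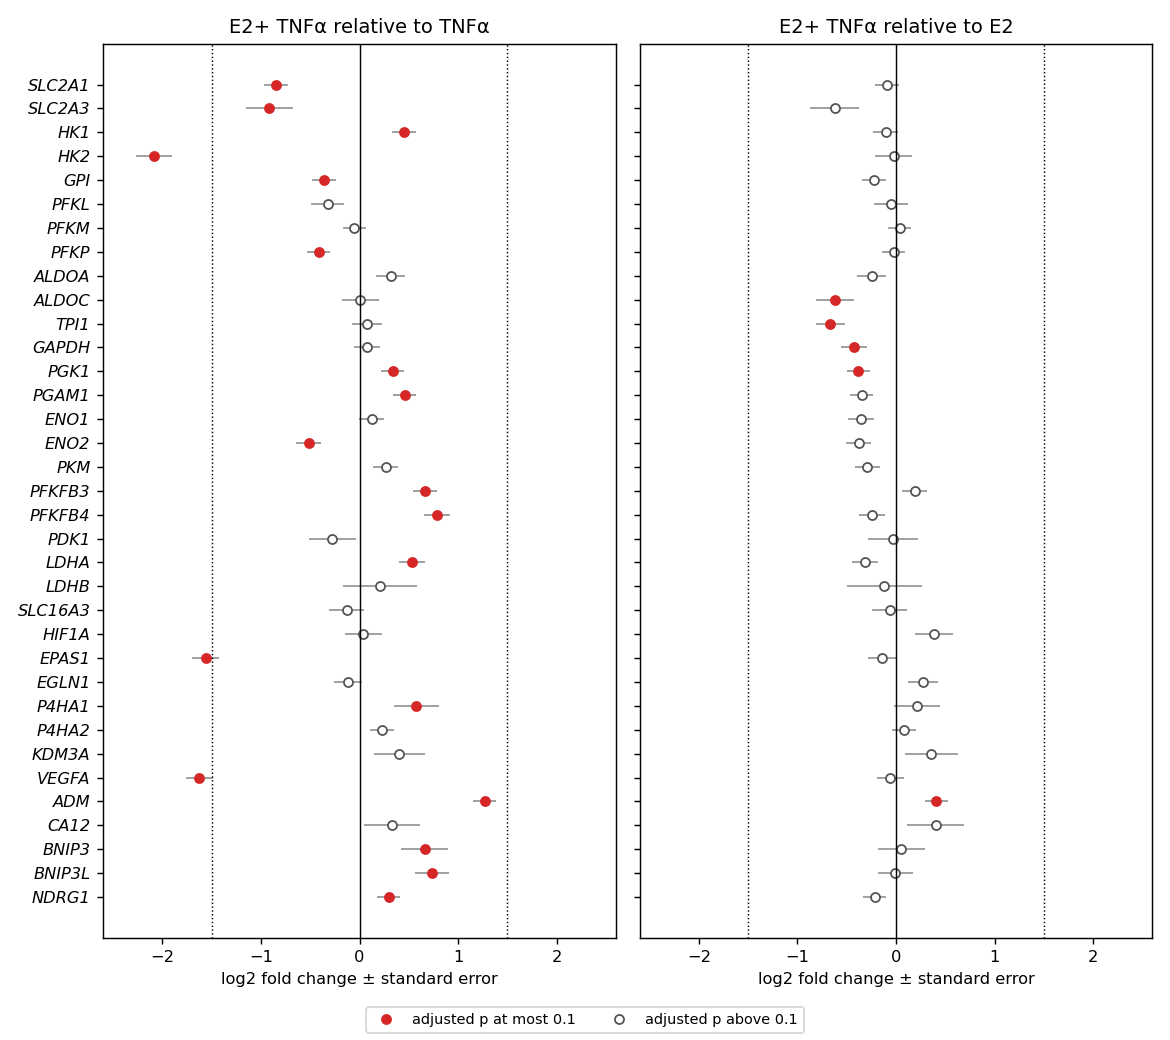
Log2 fold change (x axis, points) ± standard error (bars) for the 35 tested members (y axis) in E2+ TNFα relative to TNFα (left) and relative to E2 (right). Filled points have an adjusted p of at most 0.1 and dotted lines mark a log2 fold change of 1.5 in either direction. HK2, EPAS1 and VEGFA lie beyond the dotted line on the left and no member does on the right.

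The largest change relative to TNFα among the 35 members was that of HK2. HK2 (hg38 chr2:74832655-74893354), the inducible hexokinase that many tumours use to trap glucose, had 81.4, 96.6 and 90.7 CPM in vehicle, 17, 11.9 and 21.4 CPM in E2, 67.4, 65.5 and 80 CPM in TNFα, and 20.3, 13.9 and 16.2 CPM in E2+ TNFα. All 6 libraries with E2 were below all 6 without it. Relative to TNFα, E2+ TNFα was lower by a log2 fold change of -2.08 ± 0.19 (4.24-fold, adjusted p = 4.56e-07), and leaving out any single library kept it between -2.23 and -1.96. The difference between E2+ TNFα and E2 was -0.02 ± 0.19. Against vehicle, HK2 was repressed by E2 (-2.40 ± 0.19, and -2.36 with trends removed) and by E2+ TNFα (-2.42 ± 0.19, and -2.49 with trends removed). HK2 has a close copy elsewhere in hg38 with 95.7% identity, so some of its reads may be split. An opposite-strand transcript, HK2-DT, is annotated over 1333 of its exon bases. The strand setting of the counting is not given in the sources used here, so reads of either strand cannot be told apart.

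HK1, the widely expressed hexokinase, moved the other way in TNFα-treated cells. Its 3 E2+ TNFα libraries had 900.2, 747 and 1026 CPM against 686, 610.2 and 658 CPM in TNFα, a log2 fold change of 0.45 ± 0.12 (adjusted p = 0.0102). By RPKM, HK2 made up 10.6% ± 1.1 (SD, n = 3) of the summed HK1 and HK2 level in vehicle, 7.10% ± 0.71 in TNFα, 1.21% ± 0.32 in E2 and 1.31% ± 0.23 in E2+ TNFα. The E2 and E2+ TNFα ranges overlapped, and both lay below the TNFα range.

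SLC2A1 had 355, 351 and 318 CPM in vehicle, 465, 575 and 513 CPM in E2, 897, 782 and 949 CPM in TNFα, and 489.7, 433 and 536 CPM in E2+ TNFα. The TNFα libraries were the highest and did not overlap with any other group, while E2 and E2+ TNFα overlapped. E2+ TNFα was below TNFα by a log2 fold change of -0.85 ± 0.12 (1.80-fold, adjusted p = 6.81e-05). TNFα exceeded vehicle by 1.36 ± 0.12 (adjusted p = 1.97e-07), and by 0.85 with trends removed. The change of SLC2A1 with E2 alone, 0.60 ± 0.12, became -0.041 with trends removed, so its direction depends on that step. SLC2A3, the high-affinity transporter GLUT3, was far lower, with 18.2, 22.1 and 21.5 CPM in vehicle, 10.6, 5.57 and 8.57 CPM in E2, 10.3, 8.21 and 12.6 CPM in TNFα, and 6.48, 4.30 and 5.71 CPM in E2+ TNFα. Its E2+ TNFα libraries lay below all TNFα libraries and overlapped with E2. It was repressed against vehicle by -1.92 ± 0.24 (-1.52 with trends removed) and below TNFα by -0.92 ± 0.24 (adjusted p = 0.00709). It has 2 close copies elsewhere in the genome.

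**Figure D3:**
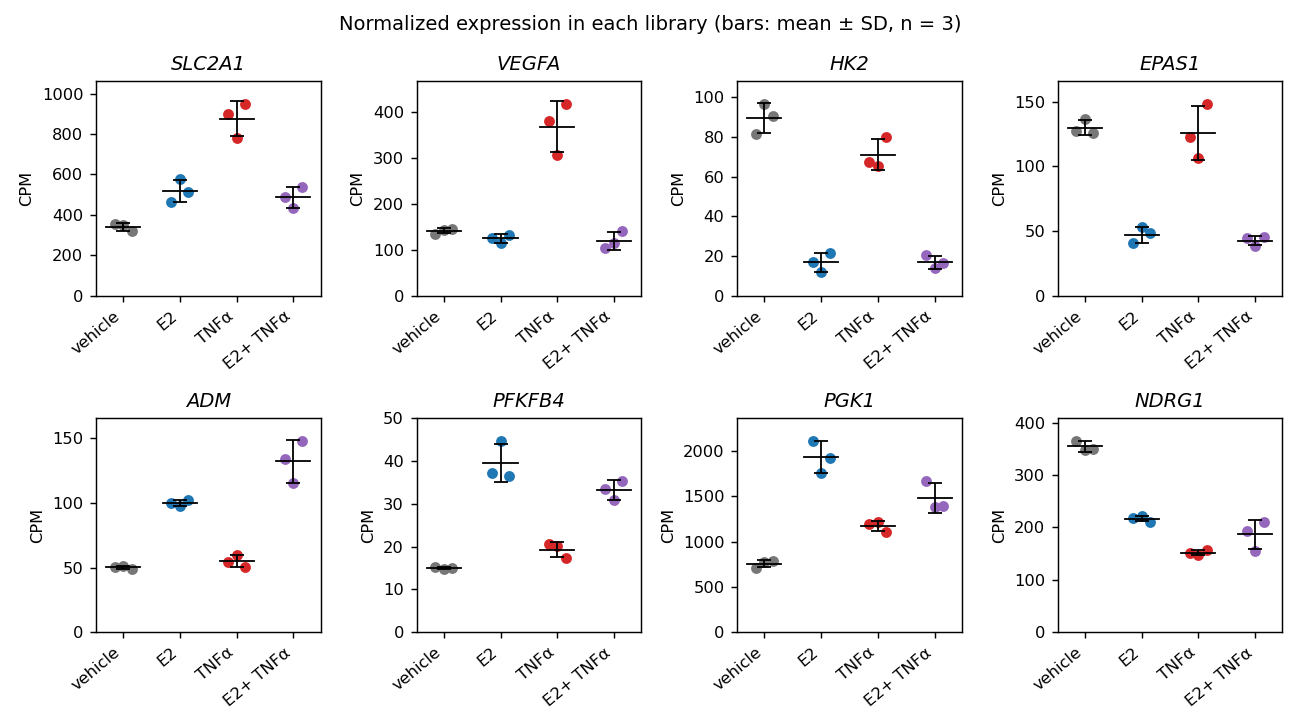
CPM (y axis, from 0) in each of 12 libraries (points) by group (x axis) for SLC2A1, VEGFA, HK2, EPAS1, ADM, PFKFB4, PGK1 and NDRG1, with the mean ± SD of 3 libraries as bars. SLC2A1 and VEGFA are highest in TNFα, HK2 and EPAS1 are low in both groups with E2, and ADM and PFKFB4 are high in both.

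Among the 13 glycolytic enzymes, changes were smaller. In E2+ TNFα relative to TNFα, PGK1 and PGAM1 rose, GPI, PFKP and ENO2 fell and 8 did not pass the test. PGK1, phosphoglycerate kinase 1 and a textbook HIF target, had 713, 774 and 783 CPM in vehicle, 2111, 1754 and 1926 CPM in E2, 1195, 1216 and 1104 CPM in TNFα, and 1672, 1378 and 1387 CPM in E2+ TNFα. Each group's 3 libraries were separate from those of every other group. The log2 fold change was 0.34 ± 0.12 relative to TNFα (adjusted p = 0.0347) and -0.38 ± 0.12 relative to E2 (adjusted p = 0.0893). With trends removed, PGK1 passed the thresholds for E2 against vehicle at 1.72, while the value without that step was 1.35 ± 0.12. It has 2 close copies. PKM, pyruvate kinase, had 2035, 1938 and 1898 CPM in vehicle, 6418, 8232 and 6149.6 CPM in E2, 4977, 4666 and 4490.3 CPM in TNFα, and 5743, 5201 and 6025 CPM in E2+ TNFα. Vehicle was lowest and E2 highest, without overlap between any 2 groups. PKM was called induced against vehicle by E2 (1.82 ± 0.13) and by E2+ TNFα (1.53 ± 0.13), at 1.11 and 0.91 with trends removed.

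PFKP, the platelet-type phosphofructokinase, had 509, 453 and 459.9 CPM in vehicle, 298, 328 and 312 CPM in E2, 449.6, 381 and 397 CPM in TNFα, and 275, 290.0 and 356 CPM in E2+ TNFα. Both groups with E2 were below both without it. E2+ TNFα was below TNFα by -0.41 ± 0.12 (adjusted p = 0.0134). ENO2, the neuronal-type enolase, had 75.8, 79.4 and 82.3 CPM in vehicle, 45.0, 54.1 and 54.0 CPM in E2, 57.4, 52.6 and 57.9 CPM in TNFα, and 42.8, 33.5 and 41.3 CPM in E2+ TNFα. Its E2 and TNFα libraries overlapped, and E2+ TNFα was below TNFα by -0.51 ± 0.12 (adjusted p = 0.00455). ALDOC, a minor aldolase, had 11.9, 10.0 and 10.7 CPM in vehicle, 14.3, 18.3 and 14.4 CPM in E2, 12.2, 9.96 and 8.10 CPM in TNFα, and 9.56, 9.60 and 11.3 CPM in E2+ TNFα. It fell relative to E2 by -0.62 ± 0.19 (adjusted p = 0.0961).

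Relative to E2, 4 of the 13 glycolytic enzymes fell in E2+ TNFα, ALDOC, PGK1, TPI1 and GAPDH, and 0 rose. Of all tested genes, 3.34% fell and 2.65% rose by the same test. TPI1 fell by -0.67 ± 0.15 (adjusted p = 0.0317) and GAPDH by -0.43 ± 0.13 (adjusted p = 0.0946). Neither passed in the fit of these groups alone (adjusted p = 0.223 and 0.470). PGAM1, ENO1, ENO2 and PKM did not pass the test, at -0.35, -0.36, -0.38 and -0.29, although their 3 E2+ TNFα libraries were all below the 3 E2 libraries. ALDOA (-0.25) did not pass either, and its libraries overlapped. Over all 35 members, E2+ TNFα libraries were all below E2 for 10 and all above for 2, beside 9.27% and 6.05% of all tested genes. With trends removed the log2 fold change was -0.46 for TPI1, -0.26 for GAPDH and -0.40 for PGK1. That of ALDOC was -0.41 and no longer passed the test (adjusted p = 0.114). The E2 group had the smallest libraries (7652016 to 15755240 reads) and its replicate 2 had the highest CPM of PKM, GAPDH, ENO1, ALDOA and TPI1. The part of depth in these values was not tested. GAPDH has 17 close copies elsewhere in the genome, TPI1 and PGAM1 have 3 each, and their counts are uncertain for that reason.

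The regulatory kinases PFKFB3 and PFKFB4, which make the phosphofructokinase activator fructose 2,6-bisphosphate, were both higher with E2 in TNFα-treated cells. PFKFB4 had 15.2, 14.8 and 15 CPM in vehicle, 37.3, 44.7 and 36.6 CPM in E2, 20.6, 20.0 and 17.2 CPM in TNFα, and 33.6, 30.8 and 35.4 CPM in E2+ TNFα. All 6 libraries with E2 exceeded all 6 without it. E2+ TNFα was above TNFα by 0.78 ± 0.13 (adjusted p = 0.000278), and E2 was above vehicle by 1.39 ± 0.14 (0.87 with trends removed). PFKFB3 had 80.4, 87.5 and 88.0 CPM in vehicle, 96.1, 106 and 114 CPM in E2, 79.4, 69.0 and 77.8 CPM in TNFα, and 119, 104 and 136 CPM in E2+ TNFα. It rose relative to TNFα by 0.67 ± 0.12 (adjusted p = 0.000557). PFKFB4 shares 1057 exon bases with the entry for UCN2, so its counts are uncertain. PDK1, which blocks pyruvate entry into the mitochondrial cycle, had 11.7, 14.4 and 14.2 CPM in vehicle, 8.06, 6.53 and 5.42 CPM in E2, 7.26, 7.69 and 8.93 CPM in TNFα, and 7.65, 7.89 and 4.25 CPM in E2+ TNFα. The 3 treated groups overlapped and lay below vehicle in CPM, at log2 fold changes of -1.0004 for E2, -0.76 for TNFα and -1.03 for E2+ TNFα. With trends removed these turned to 0.88, 0.92 and 0.46, all with an adjusted p of at most 0.1, so the direction for PDK1 depends on that step.

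For lactate, LDHA, which reduces pyruvate to lactate, had 987, 1072 and 1058 CPM in vehicle, 1906, 1441 and 1826 CPM in E2, 923, 1095 and 849.6 CPM in TNFα, and 1518, 1343 and 1285 CPM in E2+ TNFα. The groups with E2 were above the groups without it. E2+ TNFα exceeded TNFα by 0.53 ± 0.13 (adjusted p = 0.00568), and E2 exceeded vehicle by 0.73 ± 0.13 (1.13 with trends removed). LDHA has 7 close copies. LDHB, which favours the reverse reaction, had 270.2, 262 and 299 CPM in vehicle, 171, 44.4 and 75.2 CPM in E2, 63.3, 105 and 64.7 CPM in TNFα, and 71.0, 138 and 60.4 CPM in E2+ TNFα. It varied more between replicates than LDHA, and the 3 treated groups overlapped. SLC16A3, the lactate exporter MCT4, had 271, 209.6 and 231 CPM in vehicle, 479.5, 701 and 473 CPM in E2, 607, 538 and 585 CPM in TNFα, and 440.3, 465 and 675 CPM in E2+ TNFα. Its treated groups overlapped as well, and E2+ TNFα differed from TNFα by -0.13 ± 0.18.

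**Figure D4:**
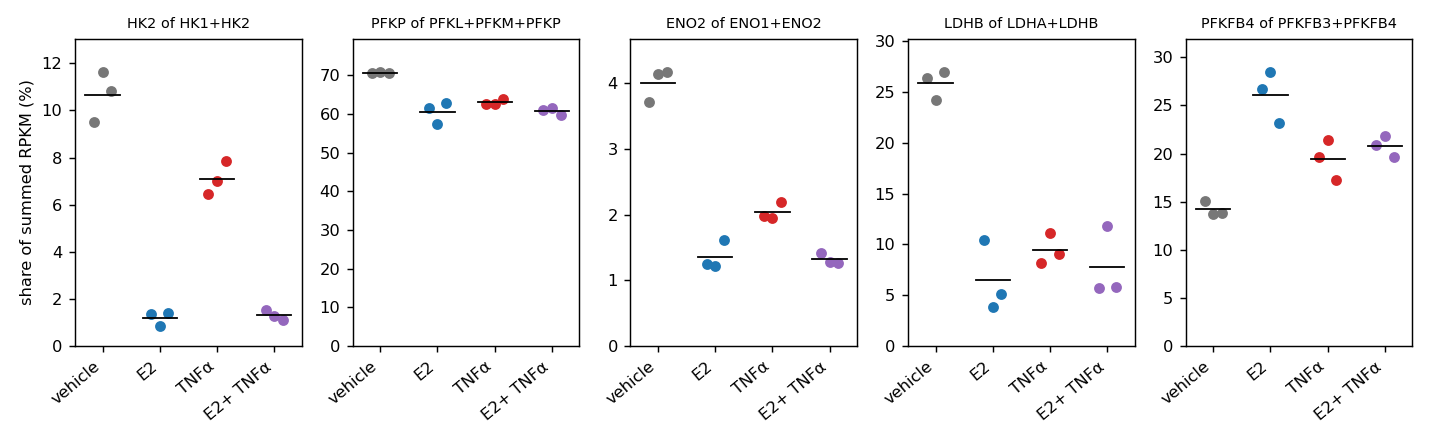
Share of the summed RPKM of an isozyme family (y axis, percent, from 0) held by HK2, PFKP, ENO2, LDHB and PFKFB4 in each library (points), with the group mean as a line, by group (x axis). The HK2 share is near 1% in both E2 groups and above 6% in every vehicle and TNFα library, and the ENO2 and LDHB shares are highest in vehicle.

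Other pairs showed different patterns. LDHB made up 25.8% ± 1.4 of the LDHA and LDHB level in vehicle, 6.48% ± 3.51 in E2, 9.47% ± 1.52 in TNFα, and for E2+ TNFα it was 7.79% ± 3.5 (SD, n = 3 each). ENO2 made up 4.01% ± 0.26 of enolase in vehicle, 2.04% ± 0.13 in TNFα, 1.36% ± 0.22 in E2 and 1.32% ± 0.09 in E2+ TNFα. The TNFα range of ENO2 lay above both groups with E2. PFKP held 70.6% ± 0.2 of the summed level of PFKL, PFKM and PFKP in vehicle and 60.5% to 62.9% on average in the other groups. PFKFB4 made up 14.2% ± 0.8 of the PFKFB3 and PFKFB4 level in vehicle and 26.1% ± 2.7 with E2 alone, against 19.4% ± 2.1 with TNFα alone and 20.8% ± 1.1 with both agents, which overlapped. EPAS1 made up 36.6% ± 4.2 of the HIF1A and EPAS1 level in vehicle, 70.0% ± 4.6 in TNFα, 53.0% ± 5.0 in E2 and 44.2% ± 8.2 with both agents, and TNFα lay above all other libraries. A share between genes of unlike GC content moves with the GC trend too, and the part of that trend was not tested.

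The HIF alpha subunits differed from each other. EPAS1 (hg38 chr2:46297402-46386703), which encodes HIF-2α, had 127, 137 and 126 CPM in vehicle, 40.4, 52.8 and 48.1 CPM in E2, 123, 106 and 148 CPM in TNFα, and 44.2, 38.3 and 45.3 CPM in E2+ TNFα. Both groups with E2 were below both without it, and E2 and E2+ TNFα overlapped. E2+ TNFα was below TNFα by -1.56 ± 0.14 (2.95-fold, adjusted p = 5.46e-07). The call depended on single libraries, since the value was -1.43 without TNFα replicate 3 and -1.49 without E2+ TNFα replicate 2. Against vehicle, EPAS1 was repressed by E2+ TNFα (-1.61 ± 0.14, and -1.88 with trends removed). For E2 the value was -1.47 ± 0.14, and it passed the size threshold with trends removed (-1.75).

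HIF1A (hg38 chr14:61695401-61748259) had 151, 225 and 200.2 CPM in vehicle, 31.5, 31.5 and 42.4 CPM in E2, 39.9, 48.8 and 45.5 CPM in TNFα, and 47.2, 56.5 and 34.4 CPM in E2+ TNFα. Vehicle was far above the rest. The difference between E2+ TNFα and TNFα was 0.04 ± 0.19 and did not pass the test. HIF1A was called repressed against vehicle by E2 (-2.45), TNFα (-2.10) and E2+ TNFα (-2.06), and these values became -0.56, -0.29 and -0.50 with trends removed, below the size threshold. Its exons have a GC content of 39.9%, against a median of 49.9% over tested genes. Antisense transcripts are annotated over HIF1A and the strand setting of the counting is not given in the sources used here, so reads of either strand cannot be told apart.

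Of the hydroxylases and the demethylase, P4HA1, a subunit of collagen prolyl hydroxylase, had 65.5, 81.0 and 80.5 CPM in vehicle, 26.8, 15.8 and 25.7 CPM in E2, 15.9, 19.3 and 18.6 CPM in TNFα, and 27, 35.4 and 17.7 CPM in E2+ TNFα. It was 0.58 ± 0.23 above TNFα in E2+ TNFα (adjusted p = 0.0583), with overlapping libraries. KDM3A, a histone H3 lysine 9 demethylase, had 27.7, 34.1 and 31.7 CPM in vehicle, 5.87, 3.34 and 8.48 CPM in E2, 6.47, 5.99 and 5.09 CPM in TNFα, and 7.10, 10.1 and 6.13 CPM in E2+ TNFα. Its vehicle libraries were above all 9 others. KDM3A was called repressed by E2 (-2.36 ± 0.27) and TNFα (-2.41 ± 0.26), and stayed past the thresholds with trends removed (-1.68 and -1.78), but not with a factor of unwanted variation estimated from 20 housekeeping genes (-0.51 and -0.84). With both agents it was called at -2.004 ± 0.25, and at -1.45 with trends removed it was not. EGLN1, the main HIF prolyl hydroxylase, and P4HA2 did not pass the test in either comparison without vehicle.

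Of the secreted products, VEGFA (hg38 chr6:43770209-43786487), the main growth factor for blood vessels, had 134, 143 and 145 CPM in vehicle, 126, 115 and 133 CPM in E2, 381, 306 and 417 CPM in TNFα, and 103, 114 and 141 CPM in E2+ TNFα. The TNFα libraries stood above all 9 others. E2+ TNFα was below TNFα by -1.62 ± 0.14 (3.08-fold, adjusted p = 3.15e-07), with a range of -1.76 to -1.52 when any single library was left out, and differed from E2 by -0.06 ± 0.14. TNFα was above vehicle by 1.39 ± 0.14 (adjusted p = 4.27e-07) and by 1.03 with trends removed, both below the size threshold.

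ADM (hg38 chr11:10304980-10307402), which encodes the vasodilator peptide adrenomedullin, had 50.7, 51.2 and 48.9 CPM in vehicle, 99.8, 97.4 and 102 CPM in E2, 54.5, 59.9 and 50.3 CPM in TNFα, and 134, 115 and 148 CPM in E2+ TNFα. The E2+ TNFα libraries were the highest of the 4 groups. ADM rose by 1.27 ± 0.12 relative to TNFα (2.41-fold, adjusted p = 6.84e-07) and by 0.41 ± 0.12 relative to E2 (adjusted p = 0.0743). The rise relative to E2 did not pass the test in the fit of these groups alone (adjusted p = 0.328). Its rise with E2 against vehicle was 0.99 ± 0.12, but 0.09 with trends removed. CA9 had 0.392, 0.395 and 0.328 RPKM in vehicle, 0.329, 0.383 and 0.217 RPKM in E2, 0.672, 0.803 and 1.31 RPKM in TNFα, and 0.223, 0.105 and 0.593 RPKM in E2+ TNFα. TNFα was the highest group for CA9, and at these read numbers no test was made. CA12, another carbonic anhydrase, was between 4.96 and 16.2 CPM and did not pass the test in either comparison without vehicle.

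The mitophagy receptors BNIP3 and BNIP3L and the stress gene NDRG1 all rose in E2+ TNFα relative to TNFα. BNIP3 had 74.6, 80.9 and 83.4 CPM in vehicle, 52.4, 25.2 and 41.6 CPM in E2, 21.6, 33.2 and 24.1 CPM in TNFα, and 46.3, 48.9 and 29.7 CPM in E2+ TNFα, a rise of 0.66 ± 0.24 relative to TNFα (adjusted p = 0.0405) with overlapping libraries. BNIP3L had 56.3, 67.6 and 63.5 CPM in vehicle, 32.8, 22.1 and 31.5 CPM in E2, 15.8, 20.5 and 15.6 CPM in TNFα, and 29.7, 33.3 and 23.8 CPM in E2+ TNFα, a rise of 0.74 ± 0.17 (adjusted p = 0.0039) without overlap. Both were highest in vehicle in CPM. For BNIP3L the changes against vehicle were -1.10 with E2, -1.85 with TNFα and -1.11 with both, and with trends removed they turned to 0.86, 0.10 and 0.54, of which the first and last passed the test. NDRG1 had 365, 348 and 350.1 CPM in vehicle, 218, 222 and 211 CPM in E2, 152, 147 and 157 CPM in TNFα, and 194, 155 and 210.3 CPM in E2+ TNFα. The TNFα group was lowest, with a single E2+ TNFα library inside its range, and the rise relative to TNFα was 0.30 ± 0.11 (adjusted p = 0.055). In a fit of the TNFα and E2+ TNFα libraries alone this rise of NDRG1 did not pass the test (adjusted p = 0.117). Against vehicle TNFα was lower by -1.22 ± 0.12, and by -1.73 with trends removed.

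Against vehicle, more members were called, and these 3 comparisons share the vehicle libraries. For E2, 1 member was induced (PKM) and 5 were repressed (HK2, LDHB, HIF1A, P4HA1 and KDM3A), beside 30.5% of all tested genes called (9.87% higher and 20.6% lower). For TNFα, 0 were induced and 6 were repressed (LDHB, HIF1A, P4HA1, KDM3A, BNIP3 and BNIP3L), beside 26.7% of all genes (6.64% higher and 20% lower). For E2+ TNFα, PKM was induced and 7 were repressed (SLC2A3, HK2, LDHB, HIF1A, EPAS1, P4HA1 and KDM3A), beside 25.1% of all genes (7.52% higher and 17.6% lower). The shares of members called, 17.1%, 17.1% and 22.9%, were all below those background shares. Several calls near the size threshold depended on single libraries. With E2, LDHB was -1.505 and P4HA1 -1.71, and without E2 replicate 2 they were -1.12 and -1.48. LDHB with E2 was also lost without E2 replicate 3 (-1.39) and without vehicle replicate 3 (-1.48). With TNFα, BNIP3 was -1.60 and became -1.47 without TNFα replicate 1. With both agents, leaving out E2+ TNFα replicate 3 moved LDHB from -1.62 to -1.40, P4HA1 from -1.502 to -1.27 and PKM from 1.53 to 1.48. LDHB was lost there without E2+ TNFα replicate 1 (-1.48) too, and PKM and P4HA1 without vehicle replicate 2 (1.499 and -1.48) or vehicle replicate 3 (1.48 and -1.48).

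With trends removed, 4 members passed the thresholds for E2 (PGK1 higher, and HK2, EPAS1 and KDM3A lower), beside 13.9% of all genes (7.36% higher and 6.57% lower). For TNFα 2 passed, KDM3A and NDRG1, both lower, beside 10.5% (4.89% higher and 5.57% lower). For E2+ TNFα 4 passed, SLC2A3, HK2, ENO2 and EPAS1, all lower, beside 10.9% (5.78% higher and 5.16% lower). With any size of change, 31 members passed the test for E2, beside 81.8% of all genes, 27 for TNFα, beside 81.9%, and 31 for E2+ TNFα, beside 80.6%. Of the 31 for E2, 6 changed sign when the trends were removed, as did 10 of the 27 for TNFα and 9 of the 31 for E2+ TNFα, PDK1 and BNIP3L among them each time. In the comparisons without vehicle, 0 of 19 and 0 of 5 changed sign.

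**Figure D5:**
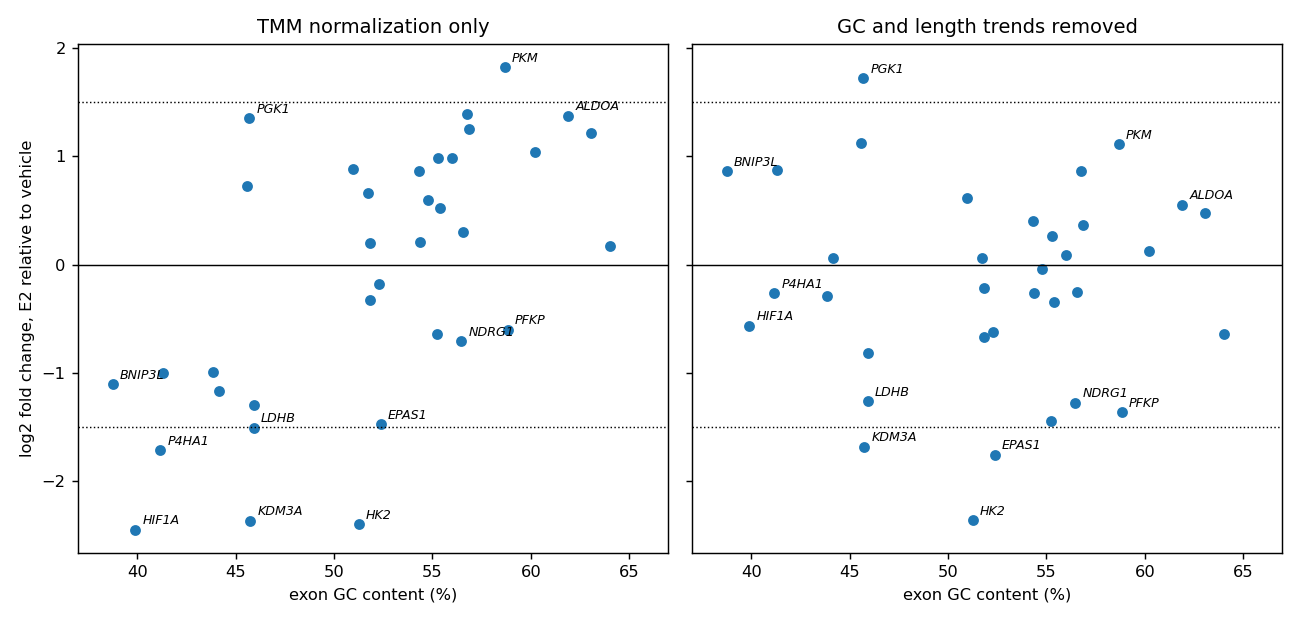
Log2 fold change of E2 relative to vehicle (y axis) against exon GC content in percent (x axis) for the 35 tested members, with TMM normalization alone (left) and with GC and length trends removed (right). Dotted lines mark a log2 fold change of 1.5 in either direction, and 12 members are named. On the left low-GC members are low and high-GC members high, with a Spearman correlation of 0.62, which was 0.02 on the right.

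Within the 35 members, the Spearman correlation of exon GC content with the change was 0.62 for E2 against vehicle, 0.62 for TNFα and 0.58 for E2+ TNFα, and with trends removed 0.02, -0.06 and -0.01. These points share the same libraries and are a description. The glycolytic enzymes had a median exon GC content of 55.4%, against 44.9% for the hydroxylases and demethylase and 43.8% for BNIP3, BNIP3L and NDRG1. Some members of high GC content were nevertheless lower with E2 than in vehicle, at -0.60 for PFKP (58.8% GC), -0.64 for ENO2 (55.2% GC) and -0.71 for NDRG1 (56.5% GC), and these became -1.36, -1.44 and -1.28 with trends removed. Since the 3 vehicle libraries stand apart as a group, the part of GC content in the changes against vehicle cannot be told apart from that of the agents.

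The E2 by TNFα interaction asks whether the TNFα response differed with E2, and it uses the vehicle libraries. By this test 6 members had a higher TNFα response with E2 than without (LDHB, HIF1A, P4HA1, KDM3A, BNIP3 and BNIP3L) and 1 had a lower one (PKM), beside 31.8% of all genes called (22.5% higher and 9.29% lower). With trends removed 2 passed, KDM3A at 2.01 and NDRG1 at 1.55, beside 13.7% (7.14% higher and 6.56% lower). With the factor of unwanted variation NDRG1 passed at 1.72 and KDM3A, at 0.79, did not. For SLC2A1 the interaction was -1.45 ± 0.17 (adjusted p = 5.01e-06) and -0.85 with trends removed, and for VEGFA it was -1.44 ± 0.19 (adjusted p = 1.33e-05) and -1.04 with trends removed. Both kept their sign and stayed under the size threshold with and without that step. With the factor of unwanted variation SLC2A1 was -0.63 (adjusted p = 0.155) and VEGFA -1.003 (adjusted p = 0.103), so neither passed the test. When any single library was left out, each was past the thresholds in 3 of 12 fits. The lowest values there were -1.53 for SLC2A1 and -1.61 for VEGFA. In CPM, VEGFA went from a mean of 141 in vehicle to 368 in TNFα without E2, and from 124 to 119 with E2.

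Other genes of these pathways were counted from lists that hold no member. Of 40 further genes of the HIF system and its targets, 32 were tested, and in E2+ TNFα relative to TNFα 4 were induced and 1 was repressed, beside the 3.55% and 2.01% of all tested genes given above. Of 42 further genes of sugar and pyruvate metabolism, 32 were tested, and 1 was induced and 1 repressed by the same test. In E2+ TNFα relative to E2, 0 genes of either list were called by edgeR or by DESeq2, beside 0.407% of all tested genes, and 8 and 5 had an unadjusted p under 0.05. With the factor of unwanted variation 1 gene of the first list was called lower. The largest called change in these lists was that of DDIT4, an inhibitor of mTOR signalling induced by hypoxia and stress, whose mean was 68.7 CPM in vehicle and 28.3 CPM in E2, against 611 CPM in TNFα and 27.5 CPM in E2+ TNFα, a log2 fold change of -4.47 ± 0.18 relative to TNFα. The others were HMOX1, heme oxygenase 1 (3.14 ± 0.14, from 32.2 to 283 CPM), STC1, the secreted hormone stanniocalcin 1 (2.67 ± 0.14, from 15.3 to 97.3 CPM) and LOX, a collagen cross-linking oxidase (2.33 ± 0.15, from 6.82 to 34.4 CPM). DDIT4 was thus lower, like VEGFA and SLC2A1, and HMOX1, STC1 and LOX were higher, like ADM, in the same comparison. In mean CPM, HMOX1 was also higher in E2 (301) than in vehicle (55.3), as ADM was. STC1 and LOX were not, at 171 and 73.1 CPM in vehicle and 95.4 and 32.3 CPM in E2. Their lowest means were those of the TNFα group.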

How the data were processed

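Poly(A) RNA of 12 libraries was sequenced in pairs after stranded library preparation. Per the labels, the authors aligned reads to hg38 with TopHat2 2.1.0 and counted reads per gene with featureCounts, and they deposited raw counts with gene positions and lengths. The annotation release and strand setting are not given in the sources used here, and the authors' batch correction is not in the deposited counts. Of 12567 rows, 46 exact repeats and 70 entries repeating another symbol's locus and counts were removed. Counts were tested with edgeR 4.0.16 (TMM, quasi-likelihood F test). In a second fit, loess trends (span 0.3) of each library's log2 counts on exon GC content and length were removed as offsets. The edgeR script was tested on simulated data. Alternatives were DESeq2 1.42.0, other normalizations and filters, 1 factor of unwanted variation, a replicate block and leaving out each library. Close copies were sought with minimap2 2.31 (at least 200 matching bases at 90% identity) and found for 16 members. Other annotated genes overlap the exons of many members. The same strand is shared over 3004 bases for EGLN1, 2505 for ALDOA, 997 for LDHB and 757 for NDRG1, so these counts are uncertain too. The members and gene lists were chosen with earlier results of these data known. Values in every library are given for members called in a comparison without vehicle or in the interaction, called against vehicle in both fits, or chosen to stand for a role, and of the related genes the 4 largest called changes in each comparison without vehicle are named. The count table's depth limits low members to a few reads, and intervals of counting error were given only as the floor of 3 reads.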

Additional observations from a re-analysis of the deposited data

Results flagged for a closer look

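For 7 members the TNFα response differed between cells with and without E2 by the interaction term of the edgeR fit. The TNFα response with E2 minus that without, on the log2 scale, was 2.77 for KDM3A, 2.49 for HIF1A, 2.29 for P4HA1, 1.84 for BNIP3L, 1.71 for LDHB and 1.65 for BNIP3, and -1.56 for PKM. All 7 values use the vehicle libraries, which stand apart from the other 9, and 31.8% of all tested genes passed the same thresholds. With GC and length trends removed, KDM3A stayed past them at 2.01, while HIF1A was 0.35, P4HA1 0.61, LDHB 1.39, BNIP3 0.83, PKM -0.85 and BNIP3L -0.42, with its sign changed. With the factor of unwanted variation none of the 7 passed them, and KDM3A was 0.79 (adjusted p = 0.377). LDHB was 1.29 without E2 replicate 2 and 1.26 without E2+ TNFα replicate 2, and BNIP3 was 1.32 without E2 replicate 2. In TNFα-treated and E2+ TNFα-treated cells, whose comparison needs no vehicle library, these genes differed by 0.40 (KDM3A), 0.04 (HIF1A), 0.58 (P4HA1), 0.74 (BNIP3L), 0.21 (LDHB), 0.66 (BNIP3) and 0.26 (PKM), of which those of P4HA1, BNIP3L and BNIP3 passed the test.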

How the results depend on the processing

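In E2+ TNFα against TNFα, the count of 3 called members held under every setting that kept all libraries, and in E2+ TNFα against E2 it was 0 under every setting. The RUV factor, GC and length trends removed, and trends removed with the replicate block lowered the other counts. E2 against vehicle went from 6 called to 4 under each, TNFα against vehicle went from 6 called to 2 under each, E2+ TNFα against vehicle from 8 to 4 under each, and the interaction from 7 to 1, 2 and 2. The members called changed too. With the RUV factor those for E2 were HK2, PGK1, EPAS1 and CA12 (2.08, adjusted p = 0.054), of which only HK2 was called without it. The interaction then held NDRG1, which was not called without the factor. Under the other settings with all libraries these counts were 5 to 8 (8 with library size alone), 6, 7 to 8 and 6 to 7. With 1 library left out the counts ran from 5 to 7 (E2 against vehicle), 5 to 6 (TNFα), 5 to 8 (E2+ TNFα, 5 without E2+ TNFα replicate 3), 2 to 3 (against TNFα), 0 to 0 (against E2) and 6 to 10 (interaction). Directions turned against vehicle for SLC2A1 with E2 (-0.19 with the RUV factor, -0.041 with trends removed and -0.042 with the block too) and with E2+ TNFα (-0.10, -0.041 and -0.041), PFKFB4 with TNFα (-0.048, -0.12 and -0.13) and BNIP3L with TNFα (0.10 with trends removed, with or without block). With trends removed BNIP3L also turned with E2 (0.86) and E2+ TNFα (0.54), and PDK1 with E2 (0.88), TNFα (0.92) and E2+ TNFα (0.46). By the same step ALDOC (-0.35) and PFKFB3 (-0.25) turned with E2, and PFKL (-0.42), GAPDH (-0.26) and EGLN1 (0.28) with TNFα. Each of these passed the test before and after it. With the RUV factor, LDHB turned to 1.66 (E2), 0.80 (TNFα), 0.80 (E2+ TNFα) and -1.67 (interaction), P4HA1 to 0.47 (E2), 0.16 (E2+ TNFα) and -0.057 (interaction), and BNIP3 to 0.14 (TNFα) and -0.56 (interaction). BNIP3 also turned with E2, from -0.99 to 1.11 (adjusted p = 0.0721 with that factor). BNIP3L turned to -0.42 in the interaction with trends removed, with or without block. These are not all of the turns. Among members that passed the test against vehicle, 6 of 31 (E2), 10 of 27 (TNFα) and 9 of 31 (E2+ TNFα) turned with trends removed. With the RUV factor 9, 11 and 8 of the same members turned, of which only BNIP3 with E2 passed the test there. The cause of these turns was not tested. Scaling by library size alone moved the median of all genes by -0.36, -0.20 and -0.23 against vehicle for E2, TNFα and E2+ TNFα, 0.12 for E2+ TNFα against E2 and 0.32 in the interaction. Correlations of deviations from the group mean ran from -0.47 to 0.45 over 18 same-numbered pairs, 5 of them above 0.1. Over 36 pairs of unlike number they ran from -0.53 to 0.63, with 17 above 0.1. Deviations from a mean of 3 libraries are not independent, so these values cannot decide whether the numbers pair the samples. With the replicate block as a term, the called counts were 6, 6, 8, 3, 0 and 7, as without it, and members at an adjusted p of at most 0.1 in E2+ TNFα against E2 went from 5 to 1. Depth limits EGLN3, CA9 and ANKRD37, which had 0 to 48 reads per library.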
